A study of Capra hircus with 29 samples.

Results

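The genes of the calcium stores of the egg and of its calcium entry channels were examined in goat oocytes. They were chosen by symbol: the inositol trisphosphate (IP3) receptors ITPR1, ITPR2 and ITPR3, the pumps ATP2A2 and ATP2B1, the store sensors STIM1 and STIM2, and the entry channels ORAI1, TRPM7 and CACNA1H. These 10 symbols matched 11 of the 21343 genes in the expression table, because ATP2A2 was given to 2 genes. ENSCHIG00000025115 carried the ATP2A2 signal and ENSCHIG00000014940 was listed at 0 in all 29 samples, so ATP2A2 means the first of them below. Levels are in FPKM, the fragments mapped per kilobase of exon and scaled to the library's total, which can be compared between genes.

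Oocytes came from Ji'ning grey goats of a high fertility population (H), with more than 3 kids per birth, and of a low fertility population (L), with fewer than 2, as the labels put it (the study's methods include 3 and 2 themselves). Each population was divided by the size of the follicle into large, medium and small. The groups were HLO, HMO and HSO for high fertility and LLO, LMO and LSO for low fertility, with 5 samples each except HSO, which had 4, and the labels name no agent given to any of them. The study's methods describe a few oocytes per sample, taken from oocytes that had been pooled by stage (stated for the high fertility population), so replicates may not be separate animals and p-values measure only the spread between samples.

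At fertilization the sperm brings a phospholipase C into the egg, IP3 is formed, and IP3 receptors open the endoplasmic reticulum store in repeated calcium waves. Each wave is ended by pumps that return calcium to the store or push it out through the plasma membrane, and entry through plasma membrane channels keeps the store filled. STIM proteins sense the calcium level in the store and open ORAI channels when it falls, and the oocyte builds up this machinery while it grows in the follicle.

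The summed FPKM of the libraries lay between 222697 and 490048, and 6646 to 8689 genes per library were above 0.5 FPKM. All 13 oocyte markers reached that level in at least 4 samples, and 9 of them in every sample, while none of the 6 leukocyte markers in the table did so in at least 4. Of 13 granulosa markers in the table, 5 reached it in at least 4 samples, with a summed level of 5.32 to 13.5 FPKM in the high and 3.52 to 17.8 FPKM in the low fertility samples. Of these granulosa markers, FSHR, LHCGR and AMH had means of 0.0403, 0.00211 and 0 FPKM, whereas KITLG (mean 4.71 FPKM) and HAS2 (1.45 FPKM) were above 0.5 FPKM in 29 of 29 samples. Of the stroma and endothelium markers, 2 of 4 reached that level in at least 4 samples, among them DCN (mean 7.95 FPKM) in all 29, and their summed level was 3.70 to 16.3 FPKM in the high and 2.22 to 17.2 FPKM in the low fertility samples. The part of other cells in the results below was not tested. The libraries LLO 2, LLO 5 and LMO 2 stood apart, with a median correlation to the other libraries under 0.85. All 3 were low fertility samples, so the tests of the members and the correlations between members are also given without these libraries. The first principal component held 39.0% of the variance, and it went with the replicate numbers, as it was above 0 in all 11 samples numbered 2 or 3 and below 0 in 11 of 12 numbered 1 or 5. HSO had no sample numbered 2, while LSO did, so these groups were not balanced for the numbers. The component was above 0 in 8 of 14 high and 7 of 15 low fertility samples. On its 2 sides ITPR1 averaged 0.664 ± 0.540 (above 0, SD, n = 15) and 1.13 ± 0.633 FPKM (below 0, SD, n = 14) and ATP2A2 2.84 ± 0.992 and 4.90 ± 1.72 FPKM, and the part of this split in the results was not tested. The sum over mitochondrially encoded genes ranged from 11.2 to 5919 FPKM and was higher in LMO (345 to 4611) than in HMO (98.8 to 353), apart from a small overlap.

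Export and refill pumps had the highest levels of the set, the store sensors followed, and the entry channels were the lowest together with ITPR3. ATP2B1, the plasma membrane pump that pushes calcium out of the cell, averaged 8.07 ± 4.76 FPKM (SD, n = 29). ATP2A2, the pump known as SERCA2 that refills the endoplasmic reticulum, averaged 3.84 ± 1.72 FPKM. ATP2B1 was above ATP2A2 in 29 of 29 samples, so this step of the order did not depend on a group. The store sensor STIM1 averaged 2.04 ± 1.33 FPKM and its relative STIM2 1.62 ± 0.93 FPKM. ATP2A2 exceeded STIM1 in 25 of 29 samples, whereas STIM1 exceeded STIM2 in 17 of 29, so the order of the sensors changed between samples.

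Among the IP3 receptors, the channels that release the store, ITPR1 averaged 0.89 ± 0.62 FPKM, ITPR2 0.51 ± 0.18 FPKM and ITPR3 0.056 ± 0.10 FPKM. STIM2 was above ITPR1 in 28 of 29 samples and ITPR1 above ITPR2 in 22 of 29. Relative to its mean, ITPR2 varied least of all members from sample to sample, between 0.240 and 0.918 FPKM. ORAI1, the pore that STIM proteins open, averaged 0.19 ± 0.21 FPKM, and TRPM7, a channel for magnesium and calcium that carries its own kinase, averaged 0.18 ± 0.12 FPKM. These channels could not be ordered, as ORAI1 was above TRPM7 in 14 of 29 samples. CACNA1H, the T-type voltage-gated channel, was at 0 in 25 samples, and its highest value was 0.0413 FPKM.

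Measured against all 21343 genes, ATP2B1 was above 86.6% and ATP2A2 above 80.5% of them by mean level. STIM1 and STIM2 were above 74.7% and 72.5%, ITPR1 above 66.7%, ITPR2 above 61.1%, and ORAI1 and TRPM7 above 51.9% and 51.5%. The members with a level above 0.5 FPKM in at least 4 samples were 6 of the 10, namely ATP2B1, ATP2A2, STIM1, STIM2, ITPR1 and ITPR2. ITPR3 and all 3 entry channels did not pass this filter and were not tested. Of all 21343 genes, 9692 passed it. ORAI1 was listed at 0 in 11 samples, ITPR3 in 6 and TRPM7 in 2. The depth behind FPKM values is not given by the table, so whether a gene at 0 was transcribed below detection could not be read from it.

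**Figure D1:**
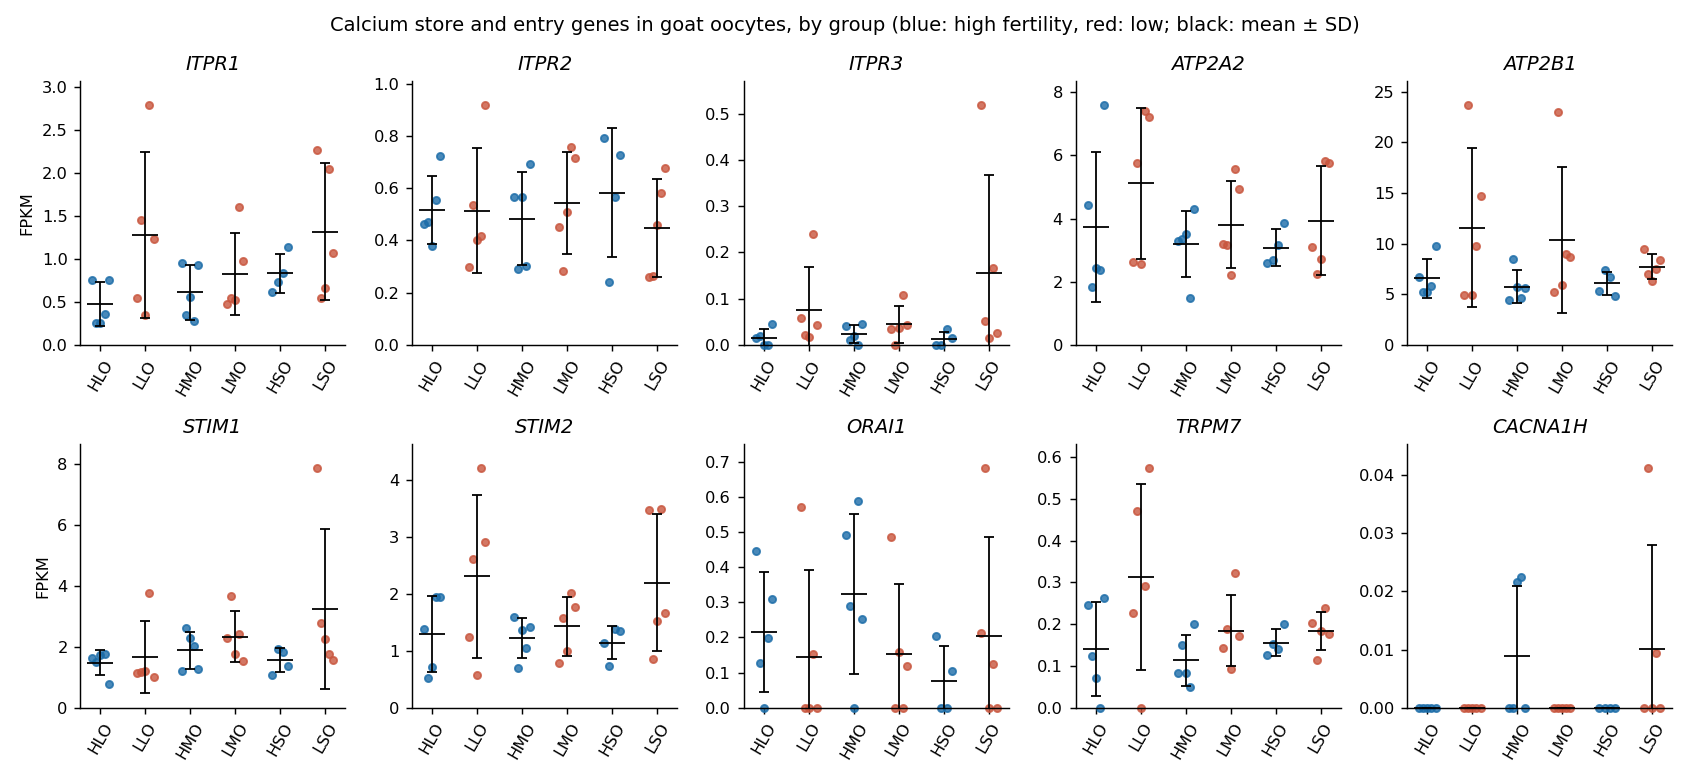
FPKM (y axis, from 0, one scale per gene) of the 10 members in each sample, by group on the x axis, with blue points for high fertility, red points for low fertility and black marks for mean ± SD (bars cut at 0). The groups overlap for every gene, and for most genes the widest range is in a low fertility group, such as 4.88 to 23.7 FPKM for ATP2B1 in LLO. ATP2A2 ranges most widely in HLO, from 1.83 to 7.60 FPKM.

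Sample by sample, ATP2B1 was at 6.72, 5.22, 5.23, 5.85 and 9.74 FPKM in HLO and at 4.88, 23.7, 4.89, 9.78 and 14.7 FPKM in LLO. In HMO it was at 4.40, 8.46, 5.68, 4.61 and 5.64 FPKM, and in LMO at 5.26, 22.9, 5.87, 8.99 and 8.69 FPKM. In HSO it was at 5.32, 7.35, 6.71 and 4.86 FPKM, and in LSO at 9.43, 6.95, 6.35, 7.48 and 8.37 FPKM. The highest values, 23.7, 22.9 and 14.7 FPKM, belonged to LLO 2, LMO 2 and LLO 5, the libraries that stood apart. No high fertility sample exceeded 9.74 FPKM, and 4 of 15 low fertility samples did.

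ATP2A2 was at 4.42, 1.83, 2.44, 2.37 and 7.60 FPKM in HLO and at 2.64, 5.77, 2.55, 7.40 and 7.23 FPKM in LLO. Its values were 3.28, 3.35, 3.52, 1.47 and 4.31 FPKM in HMO and 3.19, 3.17, 2.21, 5.58 and 4.93 FPKM in LMO. In HSO they were 2.60, 2.69, 3.17 and 3.86 FPKM and in LSO 3.10, 2.26, 2.73, 5.81 and 5.77 FPKM. The highest value of all was in HLO 5, and no low fertility sample exceeded it. The level of the refill pump relative to the export pump, ATP2A2 over ATP2B1, had a median of 0.493 and ran from 0.138 in LMO 2 to 0.794 in HSO 5. Its group means stayed between 0.461 ± 0.206 (LMO, SD, n = 5) and 0.569 ± 0.202 (HMO, SD, n = 5), a gap smaller than the SD of either group.

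For STIM1 the values were 1.62, 1.51, 1.71, 1.76 and 0.770 FPKM in HLO and 1.13, 1.15, 1.20, 3.77 and 1.01 FPKM in LLO. In HMO it was at 1.21, 2.60, 2.29, 2.01 and 1.28 FPKM, and in LMO at 2.28, 3.65, 1.76, 2.43 and 1.53 FPKM. HSO held 1.08, 1.91, 1.83 and 1.38 FPKM, and LSO held 7.87, 2.79, 2.25, 1.76 and 1.57 FPKM. One library set the mean in both LLO and LSO, since all but LLO 4 and LSO 1 were at 2.79 FPKM or less there.

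STIM2, the sensor that answers to smaller losses of store calcium, was at 1.39, 0.514, 0.715, 1.95 and 1.94 FPKM in HLO and at 1.23, 2.62, 0.574, 4.22 and 2.91 FPKM in LLO. Its values were 1.59, 0.693, 1.37, 1.05 and 1.42 FPKM in HMO and 0.792, 1.58, 0.996, 2.01 and 1.77 FPKM in LMO. They were 1.13, 0.730, 1.38 and 1.35 FPKM in HSO and 3.47, 0.848, 1.53, 3.50 and 1.66 FPKM in LSO. The high fertility samples stopped at 1.95 FPKM, and 6 of 15 low fertility samples lay above them.

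ITPR1, the main IP3 receptor of mammalian eggs, was at 0.756, 0.258, 0.256, 0.359 and 0.749 FPKM in HLO and at 0.545, 1.46, 0.350, 2.79 and 1.23 FPKM in LLO. It was at 0.953, 0.348, 0.560, 0.272 and 0.933 FPKM in HMO and at 0.480, 0.546, 0.519, 1.60 and 0.979 FPKM in LMO. In HSO the values were 0.620, 0.731, 0.830 and 1.14 FPKM, and in LSO 2.27, 0.543, 0.659, 2.04 and 1.07 FPKM. Again 6 of 15 low fertility samples lay above the highest high fertility sample, and they were the 6 that did so for STIM2 (LLO 2, LLO 4, LLO 5, LMO 4, LSO 1 and LSO 4). The lowest values, 0.256 and 0.258 FPKM, were both in HLO.

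ITPR2 group means ran from 0.448 ± 0.188 FPKM in LSO to 0.582 ± 0.247 FPKM in HSO, less than 1 SD apart. ITPR3 stayed at or below 0.108 FPKM in 26 of 29 samples, and the higher values were in LLO 4 (0.241), LSO 1 (0.519) and LSO 4 (0.167), which were also the 3 samples with the highest ITPR1 and STIM2. TRPM7 was at 0.227, 0.471, 0, 0.293 and 0.575 FPKM in LLO and at no more than 0.323 FPKM in any other group. ORAI1 group means ran from 0.0772 FPKM in HSO to 0.324 FPKM in HMO, and each group held at least 1 sample listed at 0. When the group means of each member were put in order, neighbouring groups overlapped in their ranges for every member.

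The make-up of the receptor and sensor families varied widely between samples, also between samples of the same group. ITPR1 made up a median of 58.0% of the summed FPKM of the 3 IP3 receptors, from 34.5% in HLO 2 to 80.9% in LLO 4, and was above 50% in 19 of 29 samples. The group mean was lowest in HLO, at 45.0% ± 10.6 (SD, n = 5), where only HLO 1 was above 50%. It was 63.1% ± 13.9 in LLO, 53.4% ± 5.54 in HMO, 57.1% ± 8.10 in LMO, 59.5% ± 12.9 in HSO (SD, n = 4) and 65.9% ± 7.51 in LSO, where all 5 samples were above 50%. HLO and LSO were thus the groups at the ends of the order, and their samples still overlapped, since HLO 1 was at 61.2% and LSO 3 at 58.2%. STIM1 made up a median of 54.7% of the summed STIM level, from 25.7% in LLO 5 to 78.9% in HMO 2. Its group means were between 43.8% ± 16.6 (LLO, SD, n = 5) and 61.8% ± 11.3 (LMO, SD, n = 5).

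**Figure D2:**
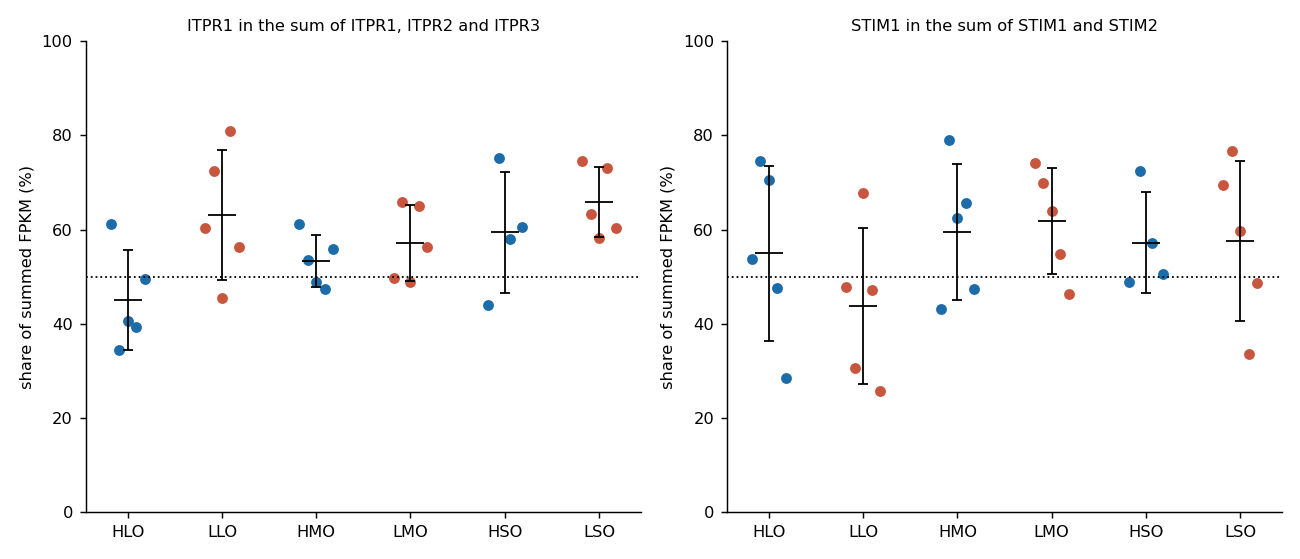
Share of ITPR1 in the summed FPKM of the IP3 receptors (left) and of STIM1 in the summed FPKM of the store sensors (right), in percent on the y axis, per sample and group (blue high fertility, red low fertility, black mean ± SD, dotted line at 50%). HLO has the lowest mean share of ITPR1, 45.0%, and the ranges of the groups overlap.

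High and low fertility were compared on log2(FPKM + 1) with limma's moderated test over all genes that passed the filter, and a gene counted as called at an adjusted p under 0.05 after Benjamini-Hochberg correction. Differences are given as high minus low on that scale, which understates changes of low genes. Fewer transcripts per oocyte and a shift in the rest of the RNA cannot be told apart in FPKM.

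In large follicles none of the 6 tested members passed, with or without adjustment, where 4.14% of 8328 genes were under an unadjusted p of 0.05 and 0% under an adjusted one. ITPR1 came nearest, at 0.476 ± 0.256 FPKM in HLO against 1.27 ± 0.963 in LLO, a log2 difference of -0.54 (SE 0.28, adjusted p = 0.828 by limma). It was -0.33 without LLO 4, and -0.45 without LLO 2 and LLO 5. ATP2B1 differed by -0.54 (SE 0.47), by -0.24 without LLO 2 alone, and turned to 0.04 without LLO 2 and LLO 5. The median over the 6 members was -0.43 and that over all genes -0.09. Every member's groups overlapped, where 0.432% of all genes had no overlap.

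In medium follicles none of the 6 members passed, against a background of 8.67% of 8390 genes at the unadjusted and 0.0715% at the adjusted threshold. All 6 differences were negative, beside 56.5% of those over all genes. ATP2B1 had the largest, 5.76 ± 1.62 FPKM in HMO against 10.4 ± 7.23 in LMO, at -0.59 (SE 0.38, adjusted p = 0.652 by limma). Without LMO 2 it was -0.28 (SE 0.28). The other differences lay between -0.21 (STIM1) and -0.06 (ITPR2), beside a median of -0.07 over all genes. The mitochondrially encoded sum also differed between HMO and LMO, and its part in these values was not tested. Members without overlap between the groups numbered 0, where the share over all genes was 1.7%.

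In small follicles none of the 6 passed either, where 4.41% of 8376 genes did so without and 0.0119% with adjustment. STIM2 was at 1.15 ± 0.298 FPKM in HSO against 2.201 ± 1.21 in LSO, a difference of -0.50 (SE 0.30, adjusted p = 0.880 by limma). STIM1 differed by -0.58 (SE 0.36) and by -0.28 without LSO 1, the library with 7.87 FPKM. ITPR2 was the only member with a higher mean in HSO, at 0.12 (SE 0.17). The other tested members had negative differences, beside 50.8% of all genes. No member separated HSO from LSO, as 2.05% of all genes did.

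With all follicle sizes in 1 fit, 14 high against 15 low fertility samples and the stage as a covariate, 3 of 6 members were lower in high fertility at an unadjusted p under 0.05. The background was 9.99% of 9692 genes in either direction and 6.59% in this one. After adjustment no member passed, and 0.0103% of genes did. ATP2B1 averaged 6.13 ± 1.53 FPKM in high and 9.88 ± 5.99 in low fertility samples, a difference of -0.49 (95% interval -0.91 to -0.07, unadjusted p = 0.0237, adjusted p = 0.458 by limma). ITPR1 averaged 0.626 ± 0.291 against 1.14 ± 0.751 FPKM, at -0.33 (-0.62 to -0.04, unadjusted p = 0.0285, adjusted p = 0.468 by limma). STIM2 averaged 1.23 ± 0.449 against 1.98 ± 1.12 FPKM, at -0.35 (-0.70 to -0.01, unadjusted p = 0.0447, adjusted p = 0.494 by limma). Each of these genes ranged more widely in the low than in the high fertility samples.

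The remaining tested members gave intervals that included 0. ATP2A2 differed by -0.27 (95% interval -0.66 to 0.11), STIM1 by -0.26 (-0.61 to 0.08) and ITPR2 by 0.02 (-0.14 to 0.19). The interval of ITPR2 was the narrowest of the members. The median over the 6 members was -0.30, beside -0.04 over all genes, and 5 of 6 were negative, beside 57.2% of all genes.

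Without LLO 2, LLO 5 and LMO 2 none of the 3 remained: ATP2B1 was at -0.20 (SE 0.15, unadjusted p = 0.194 by limma over 26 samples), ITPR1 at -0.31 (SE 0.15, unadjusted p = 0.0583) and STIM2 at -0.28 (SE 0.18, unadjusted p = 0.130). The share of all genes under that threshold was then 4.89%. ITPR1 thus kept nearly its whole difference, while that of ATP2B1 shrank. With single samples left out, ATP2B1 stayed under 0.05 in 29 of 29 fits, ITPR1 in 27 and STIM2 in 12.

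**Figure D3:**
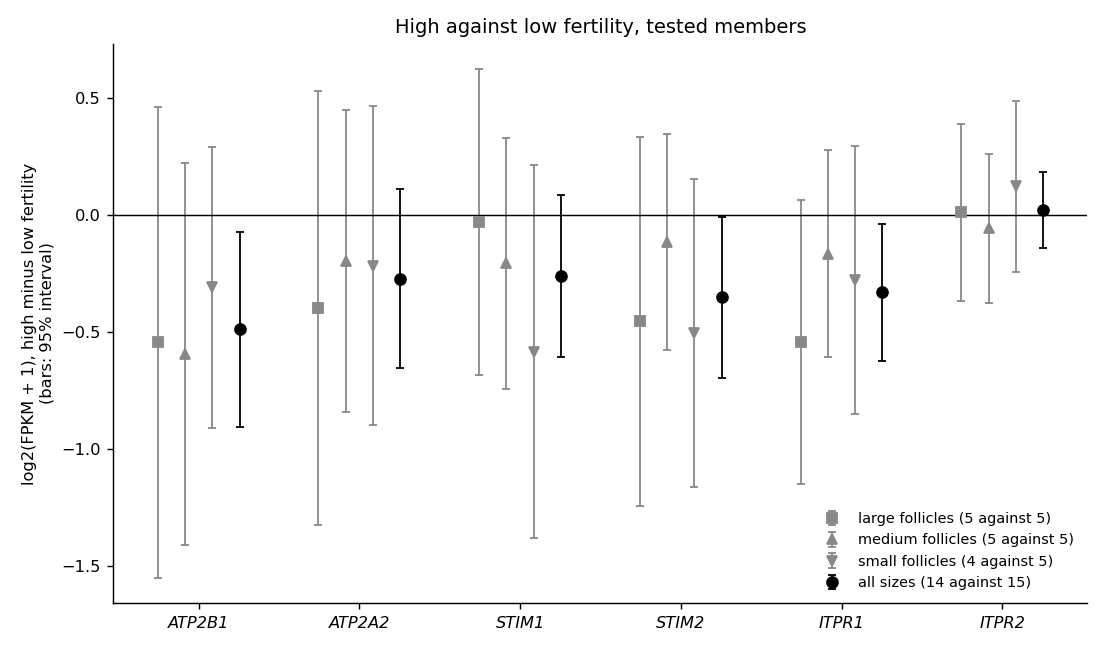
Difference between high and low fertility (y axis, log2(FPKM + 1), high minus low) of the 6 tested members on the x axis, with 95% intervals as bars, for large, medium and small follicles (grey) and all sizes together (black). Most points lie below 0, all intervals within a follicle size include 0, and those over all sizes exclude 0 for ATP2B1, STIM2 and ITPR1.

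The moderated F-test over large, medium and small follicles passed 0 of 6 members with or without adjustment, where 1.66% of 9692 genes passed without and 0% with it. STIM1 had the highest F among the members, 1.63 (adjusted p = 0.99998 by limma), with means of 1.47 and 1.65 FPKM in large, 1.88 and 2.33 in medium and 1.55 and 3.25 in small follicles for high and low fertility. This F was 1.08 without LLO 5 and 2.86 without LLO 4, and without LLO 2, LLO 5 and LMO 2 it was 0.62, below the 1.07 of ITPR1. The test of whether the fertility difference depended on follicle size also passed 0 of 6 members, beside 7.89% of all genes without and 0% with adjustment. STIM1 was again first, with an F of 0.90 (adjusted p = 0.911 by limma). It was 0.27 without LSO 1, 0.53 without HSO 1, 1.39 without LSO 5 and 2.03 without LLO 4, and without LLO 2, LLO 5 and LMO 2 it was 0.77, below the 1.19 of ITPR2. Member differences are therefore not shown to depend on the follicle size.

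The closest relations between members across samples joined different roles. Over the 29 samples Spearman's rho was 0.82 for STIM2 and ITPR1, 0.77 for ATP2A2 and ITPR1, 0.69 for ATP2A2 and STIM2, 0.61 for ATP2B1 and STIM2, and 0.60 for ATP2B1 and ATP2A2. The sensors STIM1 and STIM2 had a rho of 0.02, and ITPR1 and ITPR2 one of 0.43. STIM1 and ITPR2 ran in opposite directions, at -0.55. Without LLO 2, LLO 5 and LMO 2 these values were 0.80 for STIM2 and ITPR1, 0.76 for ATP2A2 and ITPR1, 0.66 for ATP2A2 and STIM2, 0.54 for ATP2B1 and STIM2, 0.58 for the pumps, 0.13 for the sensors and -0.47 for STIM1 and ITPR2. Within the 15 samples above 0 and the 14 below 0 on the first principal component, rho was 0.70 and 0.83 for STIM2 and ITPR1, 0.62 and 0.64 for ATP2A2 and ITPR1, and 0.41 and 0.89 for ATP2A2 and STIM2, but 0.00 and 0.21 for ITPR1 and ITPR2. STIM1 and ITPR2 kept opposite directions on both sides, at -0.50 and -0.42. Both values of each pair come from 1 library and share its depth and scaling, and the samples belong to 6 groups, so the correlations describe these libraries only.

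**Figure D4:**
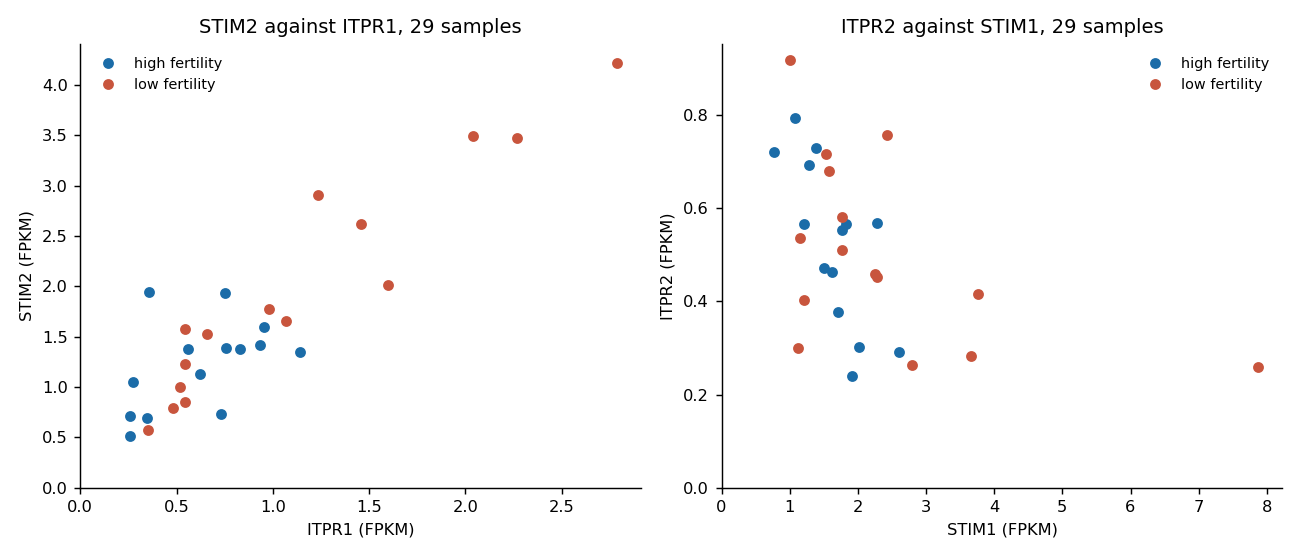
STIM2 against ITPR1 (left) and ITPR2 against STIM1 (right), both axes in FPKM from 0, 1 point per sample, blue for high and red for low fertility. STIM2 and ITPR1 were high in the same samples (rho 0.82), up to 4.22 and 2.79 FPKM in LLO 4, whereas the sample with the most STIM1, 7.87 FPKM, had 0.258 FPKM of ITPR2.

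The genes whose levels ran most like those of the 3 most abundant members were looked for among the 9691 other genes that passed the filter, by Spearman's rho over the 29 samples. For ATP2B1 they were ACCSL (0.95), the centrosomal protein gene CEP170 (0.93) and the glypican gene GPC4 (0.92). For ATP2A2 they were WASHC4, a subunit of the endosomal WASH complex (0.90), the tRNA exporter gene XPOT (0.90) and ECT2, an exchange factor needed for cytokinesis (0.90). For STIM1 they were FARP1 (0.89), ZFAND6 (0.88, a symbol shared by 2 genes) and the endosomal GTPase gene RAB22A (0.88).

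The rest of the calcium machinery was described from a list of 121 symbols in 10 roles, of which 113 were in the table as 125 genes. Of these genes 54 passed the filter, beside 9692 of all 21343 genes. Enzymes that form IP3 were present at 6.34 ± 4.24 FPKM for PLCG1, 5.30 ± 4.15 for PLCD1, 2.93 ± 1.08 for PLCH1 and 1.04 ± 0.60 for PLCG2 (SD, n = 29), and 4 of 12 phospholipase C genes passed. PLCZ1, the sperm factor, did not pass and had a mean of 0.116 FPKM. Among modulators of the IP3 receptor 4 of 16 genes passed, led by ERP44, a store protein that binds ITPR1, at 36.8 ± 13.8 FPKM, and followed by FKBP1A at 6.18 ± 4.19 and MRVI1 at 0.55 ± 0.42 FPKM. TMCO1, a leak channel that guards against overfilled stores, was at 36.1 ± 25.0 FPKM, and the ryanodine receptor RYR2 at 0.40 ± 0.22 FPKM.

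Beside the members of their own kind, several other entry channels had higher levels, whereas the other pumps and exchangers had lower ones. SLC8A1, the sodium-calcium exchanger, was at 7.01 ± 3.06 FPKM for the higher of the 2 genes with that symbol, close to the 8.07 FPKM of ATP2B1, whereas the pump ATP2B4 was at 0.94 ± 1.04 FPKM and ATP2B2 was listed at 0 in all samples. ATP2A2 was the only reticulum pump above the filter, as ATP2A1 and ATP2A3 had means of 0.0289 and 0.00038 FPKM, and the Golgi pumps ATP2C1 and ATP2C2 were at 1.07 ± 0.50 and 0.67 ± 0.57 FPKM. Among entry channels outside the set, P2RX4, an ATP-gated channel, was at 3.39 ± 1.17 FPKM, TRPM6, the closest relative of TRPM7, at 1.68 ± 1.20 FPKM, TRPC6 at 1.30 ± 0.92 FPKM and CACNA1D at 0.47 ± 0.26 FPKM. These 4 of 19 passed the filter, beside 0 of 3 entry channel members and 9692 of all 21343 genes. The difference between these counts was not tested. Of 7 regulators of entry 3 passed, SEPT2 at 2.85 ± 1.496, ESYT1 at 2.10 ± 1.39 and SARAF, a brake on STIM1, at 0.90 ± 0.37 FPKM. ORAI2 had a mean of 0.103 FPKM and ORAI3 was listed at 0 in all 29 samples.

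Proteins that hold calcium in the store were led by HSP90B1 at 27.1 ± 22.8, HSPA5 at 13.9 ± 10.4 and PDIA3 at 8.23 ± 4.39 FPKM, with 10 of 17 genes above the filter. In the mitochondrial route 11 of 15 genes passed, led by VDAC3, an outer membrane channel, at 69.1 ± 46.6 FPKM for the highest of 5 genes with that symbol, while MCU, the pore of the uniporter, was at 11.3 ± 3.23 FPKM and MCUB, its less conductive partner, at 17.6 ± 16.4 FPKM. Among the readers of the calcium signal 10 of 21 genes passed, and CALM2, which encodes calmodulin, was at 2132 ± 723 FPKM. WEE2, the kinase that closes meiosis after activation, was at 42.5 ± 32.7 FPKM, and FBXO43, the brake on the anaphase complex that the calcium signal removes, at 11.5 ± 5.65 FPKM.

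**Figure D5:**
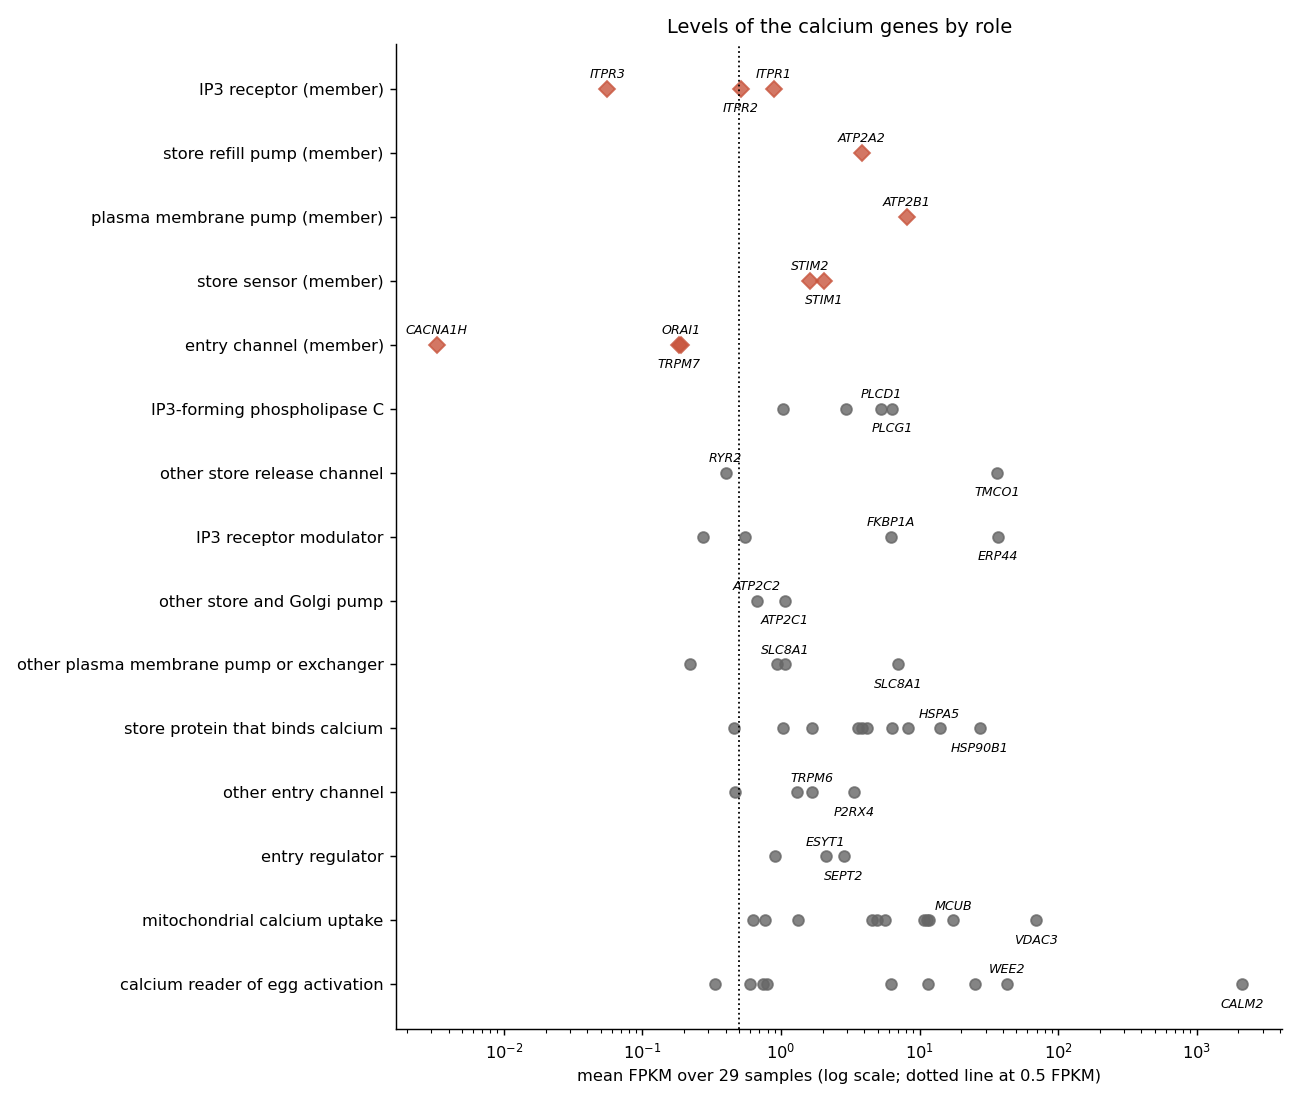
Mean FPKM over 29 samples (x axis, log scale) of the members (red diamonds) and of the other calcium genes that passed the filter and are reported here (grey circles), by role on the y axis, with the dotted line at 0.5 FPKM and the highest genes of each role named. ATP2B1 at 8.07 FPKM is the highest member, the entry channel members lie left of the line, and CALM2 is far to the right at 2132 FPKM.

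These genes were compared between the fertility groups in the same fits. At an unadjusted p under 0.05 there were 1 of 49 in large, 4 of 50 in medium and 0 of 47 in small follicles, and 6 of 54 over all sizes, beside backgrounds of 4.14%, 8.67%, 4.41% and 9.99%. None passed after adjustment. In large follicles PLCD1 was higher in HLO, 8.67 ± 6.31 against 2.98 ± 4.72 FPKM, at 1.68 (SE 0.61, adjusted p = 0.828 by limma). CALR and HSPA5, chaperones that bind calcium in the store, followed at 0.62 (SE 0.37) and 0.90 (SE 0.56), the latter at 0.56 without HLO 2. Without LLO 2 and LLO 5 PLCD1 was at 1.01, CALR at 0.30 and HSPA5 at 0.37.

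In medium follicles FKBP1A, an immunophilin that binds calcium release channels, was at 9.29 ± 4.48 FPKM in HMO against 3.51 ± 3.34 in LMO, a difference of 1.36 (SE 0.44, adjusted p = 0.346 by limma). Its symbol is shared by 4 genes, so its value is uncertain. PPP3CC, a catalytic subunit of calcineurin, differed by 1.49 (SE 0.50), and the septin gene SEPT2 by -0.92 (SE 0.31). Without LMO 2 FKBP1A was at 1.33, PPP3CC at 1.11 and SEPT2 at -0.70. In small follicles the first were MICU2, a gatekeeper of the mitochondrial uniporter, at -0.61 (SE 0.28), its small subunit SMDT1 at 0.61 (SE 0.29) and the store protein gene RCN2 at -0.67 (SE 0.33), which was -0.39 without LSO 1.

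Over all sizes SMDT1 had the lowest p of the calcium genes, at 1.07 ± 0.707 FPKM in high against 0.488 ± 0.513 in low fertility samples, a difference of 0.50 (SE 0.16, adjusted p = 0.423 by limma). SMDT1 was listed at 0 in 7 of 29 samples. CANX, the calnexin gene, was at -0.54 (SE 0.21) and PLCD1 at 0.77 (SE 0.33). The other calcium genes under that unadjusted threshold were RCN2, FBXO43 and PLCG2, all lower in high fertility, so 2 were higher and 4 lower. Without LLO 2, LLO 5 and LMO 2 SMDT1 was at 0.48 (unadjusted p = 0.0123 by limma). In the same fit CANX was at -0.37 (unadjusted p = 0.0812 by limma) and PLCD1 at 0.53 (unadjusted p = 0.106 by limma). Between follicle sizes 2 of 54 were under an unadjusted p of 0.05, and none after adjustment. HSPA5 had the highest F, 7.14 (adjusted p = 0.99998 by limma), with means of 10.9 and 5.68 FPKM in large, 10.01 and 16.9 in medium and 15.6 and 25.0 FPKM in small follicles for high and low fertility. SMDT1 and MRVI1, whose product couples cGMP kinase to IP3 receptors, followed with F values of 4.09 and 2.98. The F of HSPA5 was 11.2 without HLO 2, that of SMDT1 6.95 without LLO 1 and that of MRVI1 1.71 without LSO 1, and without LLO 2, LLO 5 and LMO 2 HSPA5 was at 4.16 and SMDT1 at 2.65. For the dependence of the fertility difference on follicle size, 3 of 54 were under the unadjusted threshold, SEPT2 (F = 5.67), FKBP1A (4.31) and HSPA5 (3.58), and none after adjustment. HSPA5 was at 2.29 without HLO 2, 6.49 without LLO 4 and 1.23 without LLO 2, LLO 5 and LMO 2. In that last fit SEPT2 was at 4.09 and FKBP1A at 3.37 (unadjusted p = 0.0297 and 0.0514 by limma).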

How the data were processed

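RNA-seq of 29 goat oocyte samples was analysed from 1 table of FPKM per gene and sample. Per the study's methods, the authors kept uniquely matching reads with few mismatches, removed duplicates with picard and deposited FPKM values from Cufflinks with the Ensembl annotation. The genome build is not given in the sources used here, so no coordinates or sequences are printed. FPKM values hold no counts, so no counting intervals are given. The name of each column gave its sample, and 1 column whose name fitted none of the samples was not used. No pair of samples held identical values.

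Tests used log2(FPKM + 1) and the genes that exceeded 0.5 FPKM in 4 or more samples of a comparison, with limma 3.58.1 in R 4.3.3 (moderated test with a trend, two-sided, Benjamini-Hochberg over all genes). The fertility groups were compared within each follicle size and over all sizes with stage as a covariate. Stages were compared by an F-test with fertility as a covariate, and the interaction by an F-test on the 6 group means. The procedure was tested on simulated data with 200 changed genes, drawn from levels above those of most tested members. Each was changed by more on the log2 scale than any member difference given above. After adjustment it called 26% of them in large, 61% in medium and 46% in small follicles. It called 90.5% over all sizes, 83% between stages and 20% for the interaction. These shares do not apply to differences as small as those of the members. A member that was not called is therefore not shown to be unchanged. The members and lists were chosen with earlier results of these data known. Named genes were, in each comparison, the member and the 3 other calcium genes with the lowest p, members under an unadjusted p of 0.05, and for levels up to 3 genes of highest mean FPKM per role; further genes named beside them were chosen after their values were seen. Genes sharing a symbol (FKBP1A, SLC8A1, VDAC3, RCN1, MRVI1) may share reads, and 1 gene of the lists is counted but not reported here.

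Alternatives were a pseudocount of 0.1, no filter, a filter at 1 FPKM, quantile normalization, median-of-ratios factors, array weights, a replicate block, 1 fit over all samples, and each sample left out in turn. The fit without the 3 libraries of low correlation was chosen after seeing the data. Correlations within the sides of the first principal component were also chosen after seeing the data. Replicate numbers were not taken to pair the samples, since not every same-numbered pair had correlated deviations above 0.1. Tables were made in Python 3.11.15 (pandas 2.3.3, numpy 2.4.6, scipy 1.17.1) and figures with matplotlib 3.10.9.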

Additional observations from a re-analysis of the deposited data

Results flagged for a closer look

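Within groups of 4 or 5 samples, a sample was singled out where its gap to the nearest other sample took up more of the group's range than Dixon's 95% limit. This held for 7 of 56 member and group combinations tested, or 12.5%. The 56 include members that did not pass the filter. Over all 21343 genes it held for 20.2% of 90474 such combinations. Over the 9692 genes that passed the filter it held for 10.5% of 57971. In normally distributed values chance gives about 1 in 20, and FPKM are not normally distributed. Of the 7, 3 were in LLO, 2 in LSO, and 1 each in LMO and HLO.

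STIM1 was singled out 3 times. It was at 3.77 FPKM in LLO 4, with the other LLO samples at 1.01 to 1.20 FPKM, and at 7.87 FPKM in LSO 1, with the others at 1.57 to 2.79 FPKM. In HLO 5 it was low, at 0.770 FPKM, below the 1.51 to 1.76 FPKM of the others. ATP2B1 was at 22.9 FPKM in LMO 2, one of the libraries that stood apart, with the others at 5.26 to 8.99 FPKM. ITPR3 was at 0.241 FPKM in LLO 4, with the others at 0.0166 to 0.0579 FPKM. ORAI1 was at 0.572 FPKM in LLO 1, with the others at 0 to 0.153 FPKM. CACNA1H was at 0.0413 FPKM in LSO 2, with the others at 0 to 0.00945 FPKM.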

How the results depend on the processing

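Counts of members under an unadjusted p of 0.05 moved as follows. In large follicles the count of 0 became 1 (ITPR1) under quantile normalization, under array weights and in 1 fit over all samples, where 6.17%, 16.5% and 11.4% of all genes were under it (4.14% as reported), and was 0 to 1 with single samples left out (1 without LLO 1 or LLO 3). In medium follicles it became 3 under array weights (39.8% of all genes), and in small follicles it was 0 to 1 with single samples left out (1 without LSO 2). Over all sizes the count of 3 became 5 with no filter on low values (ITPR3 and TRPM7 added, 7.98% of all genes), 1 under median-of-ratios factors (10.4%) and 0 without LLO 2, LLO 5 and LMO 2, and was 1 to 3 with single samples left out (1 without LLO 4 or LMO 4). Array weights gave 1 member (ATP2A2) after adjustment over all sizes, and 1 (ITPR1) between stages at the unadjusted threshold (8.43% of all genes). Over all genes, calls after adjustment over all sizes were 1 in the reported fit and 691 under array weights, which also moved the median of all genes from -0.04 to -0.16. Median-of-ratios factors put that median at 0.02. The cause was not tested.

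Replicate numbers were shared by the groups and were not taken to pair the samples: of 14 same-numbered pairs, 10 had correlated deviations above 0.1 (range -0.48 to 0.71), and 7 of 14 correlated best with their own number, a hint from the data. With the replicate number as a block, the members under an unadjusted p of 0.05 were 0 in large, 0 in medium, 1 in small follicles (STIM2) and 3 over all sizes, beside 8.21%, 16.4%, 9.41% and 15.1% of all genes, and calls over all genes after adjustment rose in medium follicles from 6 to 127. The member with the lowest p in each fertility comparison kept its direction under all alternatives run, whereas ATP2B1, STIM1 and ITPR2 in large follicles and ITPR2 over all sizes changed sign in at least 1 of them, none being called there. Of the values under other alternatives, 340 were scored as kept, 10 as moved and 7 as newly called. Small changes of a count were scored as kept, and so were mean levels and family ratios that shifted by less than their SD. This scoring is lenient, so the 340 do not measure how firm the results are. Depth, which FPKM do not show, limits every value near 0.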

Other observations

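PLCZ1, which encodes the phospholipase C that sperm deliver at fertilization, was not among the tested genes, as it stayed under 0.5 FPKM in all samples. Its mean was 0.238 ± 0.101 FPKM in HLO against 0.0549 ± 0.102 in LLO, 0.0858 ± 0.0316 in HMO against 0.0598 ± 0.0504 in LMO, and 0.198 ± 0.0965 in HSO against 0.0788 ± 0.0726 in LSO (SD, n = 5 except 4 in HSO). The groups overlapped in each follicle size. The gene was picked out after its values were seen, and the differences were not tested.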
